A study of Mus musculus with 2 samples.

Results

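Tubule injury and repair markers were compared between proximal tubular (PT) cells isolated from the kidneys of wild-type mice and PT cells isolated from mice lacking KAT5 in the PT. The 10 genes were listed by name, with no threshold on their values but with earlier results of these data known: Havcr1, Lcn2, Spp1, Vcam1, Krt8, Krt18, Krt7, Krt19, Vim and Cd44. Of these, 9 had a probe set that the platform annotation joins to the gene, out of 19505 genes joined in all. No probe set was joined to Spp1, which encodes the secreted matrix protein osteopontin, and it is not analysed here.

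One Clariom S mouse array was hybridised for each genotype, with 64 ng of RNA. KAT5, also called TIP60, is a histone acetyltransferase with roles in transcription and in the repair of DNA breaks. The KAT5 KO mice carried floxed KAT5 alleles and γGT-Cre, a Cre recombinase under the promoter of a brush border enzyme of the PT. The labels give male mice aged 8 weeks for both arrays and no injury or treatment. Magnetic beads were used to remove cells carrying CD31, an endothelial surface protein, and then to select cells carrying Prominin1. The sources used here do not give how many mice each RNA came from. The comparison describes which transcripts differed between RNA labelled wild-type and RNA labelled KAT5 KO, and no ischemia is given for these mice. It cannot separate the deletion of KAT5 from other differences between the arrays, which are given below.

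Injured tubular cells lose part of their differentiated program and switch on genes that are low in the resting PT. KIM-1, the product of Havcr1, appears on the apical membrane of injured PT cells and binds dying cells, and NGAL, the product of Lcn2, is secreted by injured distal nephron and by neutrophils. Simple epithelial keratins and vimentin form the intermediate filaments of dedifferentiated and regenerating tubular cells, whereas VCAM-1 and CD44 are adhesion receptors that are retained by tubular cells that fail to repair. Several of these genes are also active in healthy cells other than PT cells, such as leukocytes, endothelium, fibroblasts and the collecting duct.

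The values are log2 levels from robust multi-array averaging (RMA), in which a step of 1 is a 2-fold change. With 1 array per genotype there was no replicate, so that no SD, SE or p-value could be given for any gene, and differences are described by their size. Most odorant, pheromone and taste receptor genes are silent in kidney, and 1462 of them set the background level at 5.13, the 95th percentile on the array where it was higher. Over these receptor genes the deposited levels differed between the arrays with an SD of 0.55, which describes dim probe sets only. For the differences, lower levels were raised to the background level. Genes above it on either array, 11651 in all, are called measured. Differences are KAT5 KO minus wild-type throughout, and genes were counted as higher or lower from 2-fold.

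The identity of the preparations was checked first. Kat5 read 10.20 in wild-type and 8.67 in KAT5 KO cells, 34.8% of the wild-type level. A lower difference was found for 8.39% of measured genes. The authors reported a stronger decrease of KAT5 expression in isolated PT cells of the KAT5 KO mice, measured by RT-PCR and western blot. Those methods differ from the arrays. All 20 listed PT markers were above background on both arrays, and 19 of them were higher on the KAT5 KO array (median difference 6.87). The exception was Kap, with 12.19 in wild-type and 7.73 in KAT5 KO cells. The summed level of the PT list was 15.56 in wild-type cells. On that array thick ascending limb and pan-leukocyte genes summed to at least 20.42 and to 20.59, though levels of different genes are not strictly comparable. In KAT5 KO cells the PT list summed to at least 22.41, as Slc34a1 was at the ceiling of the scale. Wild-type and KAT5 KO cells are named here as labelled. The sort antigen Prom1 was also higher on the KAT5 KO array, by 4.67. Markers of other kidney cells and of immune cells showed the opposite, with 63 of 88 measured genes lower and 2 higher (median -1.84). Over all measured genes, 15.9% were lower and 17.7% were higher. The labels give male mice for both arrays, but Uty, Eif2s3y and Kdm5d, which are on the Y chromosome, read 9.84, 10.11 and 7.69 in the wild-type RNA and were under background in the KAT5 KO RNA. Genotype, cell mix and these sex-linked levels thus differed between the same arrays and cannot be told apart, and in bulk RNA fewer cells of a type cannot be told apart from less RNA per cell.

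Of the 9 markers on the array, 4 were lower on the KAT5 KO array, 0 were higher, 3 reached 2-fold in neither direction, and 2 were under the background level on both arrays. The lower genes were Krt7, Lcn2, Cd44 and Vim. Of the 3 genes that reached it in neither direction, Vcam1 and Krt8 were measured on both arrays, whereas Krt18 gave only a bound. Among all measured genes, 15.9% were lower and 17.7% were higher. The 7 measured markers had a median difference of -1.64, beside -0.05 over all measured genes.

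**Figure D1:**
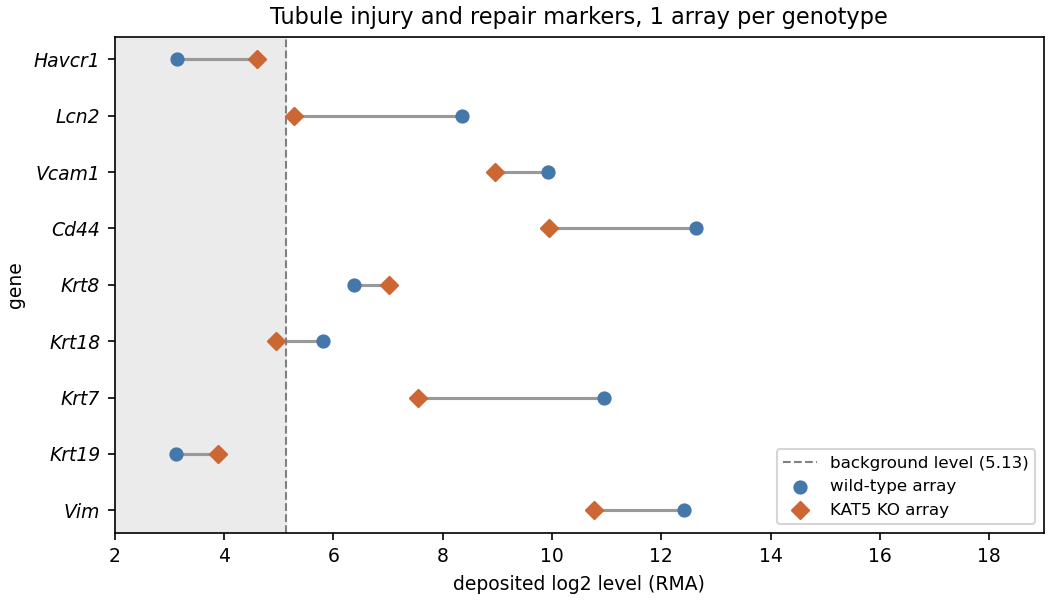
Deposited log2 levels of the 9 markers on the wild-type array (circles) and the KAT5 KO array (diamonds), with the background level of 5.13 as a dashed line and the range under it shaded. Krt7, Lcn2, Cd44 and Vim lie well to the left on the KAT5 KO array, Krt8 lies slightly to the right, and Havcr1 and Krt19 stay in the shaded range on both arrays (each point is 1 array, and levels of different genes are not comparable).

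The promoters of the 4 lower genes are shown because these genes differed in the same direction by more than 2-fold. Each run gives the 150 bases before the start in the promoter annotation, 5′ to 3′ in the direction of the gene, from RefSeq on GRCm38.p6. Capitals mark matches on either strand to the AP-1 motif TGANTCA, the TATA box TATAAA and the SP1 motif GGGCGG, which reads CCGCCC on the opposite strand. The Krt7 run lies at chr15:101412253-101412402 (plus strand), the Lcn2 run at chr2:32387740-32387889 (minus strand), the Cd44 run at chr2:102901666-102901815 (minus strand) and the Vim run at chr2:13574161-13574310 (plus strand). The outer limit of the Cd44 gene lies a few bases further upstream than this start, so that the end of its run overlaps the gene.
Krt7: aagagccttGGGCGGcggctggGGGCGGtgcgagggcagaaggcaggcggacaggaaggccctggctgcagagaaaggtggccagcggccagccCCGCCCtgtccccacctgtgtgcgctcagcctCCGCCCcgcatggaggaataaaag
Lcn2: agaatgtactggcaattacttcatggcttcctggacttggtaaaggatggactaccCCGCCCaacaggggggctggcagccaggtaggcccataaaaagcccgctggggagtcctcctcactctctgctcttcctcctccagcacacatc
Cd44: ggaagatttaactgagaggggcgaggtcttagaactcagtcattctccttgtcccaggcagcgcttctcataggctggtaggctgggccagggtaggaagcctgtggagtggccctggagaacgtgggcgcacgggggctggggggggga
Vim: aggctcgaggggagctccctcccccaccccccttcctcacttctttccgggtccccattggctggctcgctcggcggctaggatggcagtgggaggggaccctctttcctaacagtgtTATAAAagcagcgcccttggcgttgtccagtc

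No motif searched was in all 4 promoters. Within 250 bases before the start, Krt7 held 4 SP1 matches, Lcn2 held 1 SP1 match, Vim held 1 TATA box and Cd44 held none of the motifs. RefSeq promoters were given for 8 of the 10 genes, in 11 windows, since Havcr1 and Spp1 have several starts, and were not given for Vcam1 and Krt19. The AP-1 motif was in the windows of 0 of these 8 genes, beside 6.75% of all 32851 windows of the same length. The SP1 motif was in those of 2 genes, Krt7 and Lcn2, beside 32.7% of all windows. The letters TATAAA were in those of 2 genes, Vim and Spp1, beside 12.4% of all windows. They lay at -32 from the start in Vim and at -211 from 1 of the starts in Spp1. Genes with several starts are counted once here, whereas the shares count windows. A match describes the letters in the window and is not evidence of binding.

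Of the secreted and shed injury markers, Lcn2 was lower and Havcr1 gave no measurable level. Havcr1 (chr11:46739822-46779578 on GRCm38.p6, the build of all positions given) read 3.13 in wild-type and 4.60 in KAT5 KO cells. Both levels were under background, and no fold is given. Lcn2 (chr2:32384637-32387739) read 8.35 in wild-type cells, and in KAT5 KO cells it read 5.27, just above background. This is a difference of -3.08, or 11.8% of the wild-type level, and only 0.738% of measured genes had a lower difference. The result for Lcn2 was of the same direction but smaller, -1.78 as a bound, when the background level was raised to the highest of 23 antigenomic control probe sets (6.58). By RT-PCR of kidney cortex, the authors reported higher KIM-1 and NGAL expression in the KAT5 KO mice than in controls. That tissue and method differ from the isolated cells and arrays used here.

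Genes whose products bind or process these injury markers were mixed. The megalin gene Lrp2, whose receptor takes up filtered NGAL in the PT, was higher by 6.66 and the cubilin gene Cubn by 7.70, and both genes are on the list of PT markers. The NGAL receptor gene Slc22a17 differed by 0.88, from 7.91 to 8.78, and Mmp9, whose product binds NGAL, was under the background level on both arrays. Of the relatives of Havcr1, Timd2, a ferritin receptor in mice, was higher by 3.28. Havcr2, which encodes the immune receptor TIM-3, was lower by a similar amount (difference -2.73). Adam10, a sheddase, differed by -0.61.

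The adhesion receptors were lower or close to the 2-fold limit. Cd44 (chr2:102811141-102901669), which encodes a hyaluronan receptor, read 12.64 in wild-type and 9.94 in KAT5 KO cells. The difference was -2.70 (15.4% of the wild-type level). Vcam1 (chr3:116110020-116129688), which encodes the ligand of an integrin with an α4 chain, read 9.92 and 8.95. Its difference of -0.97 lay just inside the 2-fold limit, and it passed this limit at -1.11 when the arrays were quantile normalized to each other. The share of measured genes with a lower difference was 1.47% for Cd44 and 16.4% for Vcam1.

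Integrin and hyaluronan genes that pair with these receptors were mixed. Itga4, the α4 chain that binds VCAM-1, was lower and read 13.56 in wild-type and 10.76 in KAT5 KO cells. Its partner chain Itgb1 differed by -0.46, from 13.89 to 13.44. Itga9 and Itga8, α chains of osteopontin receptors, differed by -2.72 and -2.73, whereas the osteopontin receptor chain Itgav differed by -0.08. Itgb8, which pairs with the αv chain to activate TGF-β, was higher by 4.79, from 7.28 to 12.07. Of the 11 integrin genes listed as osteopontin and VCAM-1 receptors, all measured, 4 were lower and 1 was higher (median -0.46). These are 36.4% and 9.09%, beside 15.9% and 17.7% of all measured genes.

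Among 8 measured genes of hyaluronan and of CD44 partners, 2 were higher and 2 were lower. Each is 25.0%, beside 17.7% higher and 15.9% lower among all measured genes. Hyal2, a hyaluronidase, was higher by 2.93, and Ezr, which encodes the ezrin that ties CD44 to actin and is abundant in the brush border, by 1.43. The related linker genes Rdx and Msn differed by 0.07 and -1.02. The hyaluronan synthase genes Has1, Has2 and Has3 were under the background level on both arrays.

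Of the keratins among the markers, Krt7 was lower and none was higher. Krt7 (chr15:101412403-101427806), a type II keratin of simple epithelia such as the collecting duct, read 10.96 in wild-type and 7.56 in KAT5 KO cells. The difference of -3.40 left 9.46% of the level in wild-type cells, and a lower difference was found for 49 of the 11651 measured genes. Krt19 (chr11:100140810-100145926), a type I keratin and common partner of keratin 7, read 3.12 and 3.89, under background on both arrays. Krt7 thus had the largest difference of the 7 measured markers, while its partner gave no measurable level.

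Krt8 and Krt18 encode the keratins that pair in the filaments of simple epithelia, and their genes (chr15:101996711-102004342 and chr15:102028216-102032026) lie 23873 bases apart. Krt8 read 6.37 in wild-type and 7.02 in KAT5 KO cells, a difference of 0.65. Krt18 read 5.82 in wild-type cells and, under background, 4.95 in KAT5 KO cells, at least 1.61-fold lower. The difference of Krt8 was under 2-fold, and that of Krt18, which has no upper limit here, was opposite in sign. Both Krt18 levels and the wild-type level of Krt8 lay under the highest antigenomic control (6.58), and the 23 control probe sets reached from 2.08 to 6.58 over the arrays.

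Most of the other keratin genes gave no measurable level. Of 45 other keratin genes with a probe set, 41 were under the background level on both arrays, among them the injury keratin Krt20 at 4.07 and 3.28 and the basal keratin Krt5. Of the 4 measured, 1 was lower and 0 were higher, beside 15.9% and 17.7% of all measured genes. The lower gene was Krt80, an epithelial keratin, which read 8.35 in wild-type and 6.48 in KAT5 KO cells. Krt12 differed by 0.23, and Krt40 and Krt222, above background on 1 array each, by -0.19 and 0.15 as bounds.

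Vim, which encodes the intermediate filament protein of mesenchymal cells and of dedifferentiated tubular cells, read 12.42 in wild-type and 10.78 in KAT5 KO cells (chr2:13574311-13582826). The difference of -1.64 left 32.0% of the wild-type level, and 7.29% of measured genes had a lower difference. Of 14 further intermediate filament genes, 10 were under the background level on both arrays, including the muscle filament gene Des. The 4 measured ones differed by less than 2-fold, among them the lamin gene Lmna (0.35) and Nes (-0.41), which encodes nestin. Among genes that anchor filaments at junctions, Dsp, the desmoplakin gene, was lower (difference -2.11), Jup differed by -0.08 and Pkp2 was higher by 1.36. Of the 6 measured linker genes, 2 were lower (33.3%) and 1 was higher (16.7%), beside 15.9% and 17.7% of all measured genes.

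**Figure D2:**
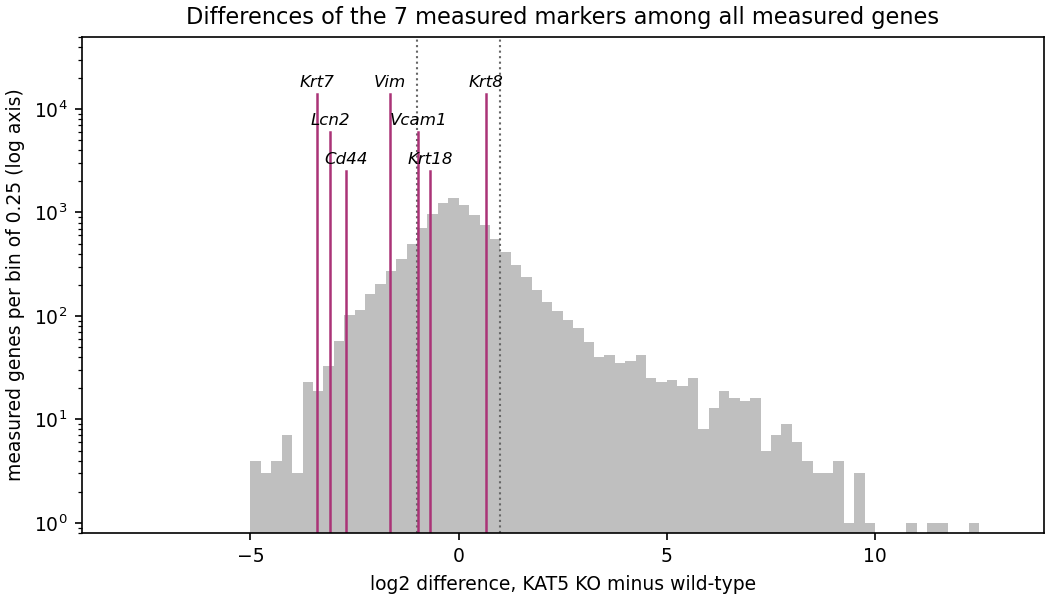
Histogram of the log2 difference (KAT5 KO minus wild-type) over the 11651 measured genes, with a log count axis, bins of 0.25 and dotted lines at the 2-fold limits. Vertical lines mark the 7 measured markers, which run from Krt7 at -3.40 to Krt8 at 0.65, and 4 of them lie left of the lower limit.

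Markers of cells other than the PT moved with the lower genes. For Cd44 and Vim, which leukocytes express, all 8 pan-leukocyte genes were lower, from -3.49 for Cd52 to -1.83, and their summed level fell from 20.59 to 18.44 on the log2 scale. The difference of Cd44 was within this range and that of Vim was smaller in size. The macrophage and monocyte genes had 9 of 11 lower, and their summed level fell from 19.65 to 18.24. Their part in the results for Cd44 and Vim was not tested.

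For Vim and Vcam1, which stromal and endothelial cells express, 7 of 11 endothelial genes and 4 of 8 measured fibroblast and mural genes were lower. The summed levels fell from 12.11 to 9.77 for endothelium and from 9.99 to 8.61 for fibroblasts and mural cells. Eng and Cdh5, endothelial genes, had differences of -2.95 and -2.77, and the CD31 gene Pecam1 differed by -0.73. Among the fibroblast and mural genes, Acta2 differed by -2.03, and Pdgfrb and Dcn, above background in wild-type cells only, by -1.89 and -1.65 as bounds. The collagen gene Col1a1 read 5.90 in wild-type cells and was under background in KAT5 KO cells, and Col3a1, Col1a2 and Postn were under background on both arrays. The part of these cells in the results for Vim and Vcam1 was not tested.

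For Lcn2, 4 of 7 measured neutrophil genes were lower, and their summed level fell from 11.29 to 9.60. S100a9 and S100a8 had differences of -2.71 and -2.12, and the granule gene Ngp, which read 6.39 in wild-type cells and was under background in KAT5 KO cells, was at least 2.40-fold lower. The granule gene Mpo was barely above background in wild-type cells (5.14), and Elane and Camp were under it on both arrays. For Krt7 and Lcn2, which the collecting duct expresses, 5 of 8 measured principal cell genes and 9 of 10 intercalated cell genes were lower. The summed levels fell from 13.85 to 10.69 and from 15.04 to 10.98. Hsd11b2 and Aqp2, of principal cells, had differences of -4.08 and -3.60, and Krt7 with -3.40 lay between Aqp2 and the median of the principal cell genes (-2.19). The other keratins among the markers are given beside this: Krt8 differed by 0.65, Krt18 by -0.69 as a bound, and Krt19 was under background on both arrays. All 8 genes of urothelium and papillary epithelium, another site of Krt7, were under the background level on both arrays. The part of neutrophils and collecting duct cells in the results for Lcn2 and Krt7 was not tested.

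The other lists of nephron and immune cells had medians under 0 as well. Of the thick ascending limb genes, 7 of 8 were lower and Cldn10 was higher, and the summed level fell from 20.42 to 16.17, a bound because Umod was at the ceiling of the scale on the wild-type array. The distal convoluted tubule had 4 of 6 genes lower (19.33 to 17.39) and lymphocytes 5 of 6 measured genes lower (12.52 to 10.43). The lower lymphocyte genes included the B cell genes Cd79a (-2.83), Cd79b (-2.23) and Ms4a1 (-1.04). Cd2 and Cd4 were lower too (-2.51 as a bound and -1.37), and Cd8a was above background in wild-type cells only. The T cell genes Cd3d, Cd3e and Cd3g were under background on both arrays. The glomerular list, of parietal epithelium and podocytes, had a median of -0.55, with 1 of its 5 measured genes lower (the podocyte gene Nphs1, -1.22) and 1 higher (Cldn1, 1.43). Its summed level was 10.65 in wild-type and 11.36 in KAT5 KO cells, a rise unlike the falls above. The rise was that of Pax8 (9.54 and 10.51) and Cldn1 (8.41 and 9.84), the genes with the highest levels in KAT5 KO cells. Podxl and Synpo differed by -0.92 and -0.55, so that the sum does not describe the podocyte genes.

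**Figure D3:**
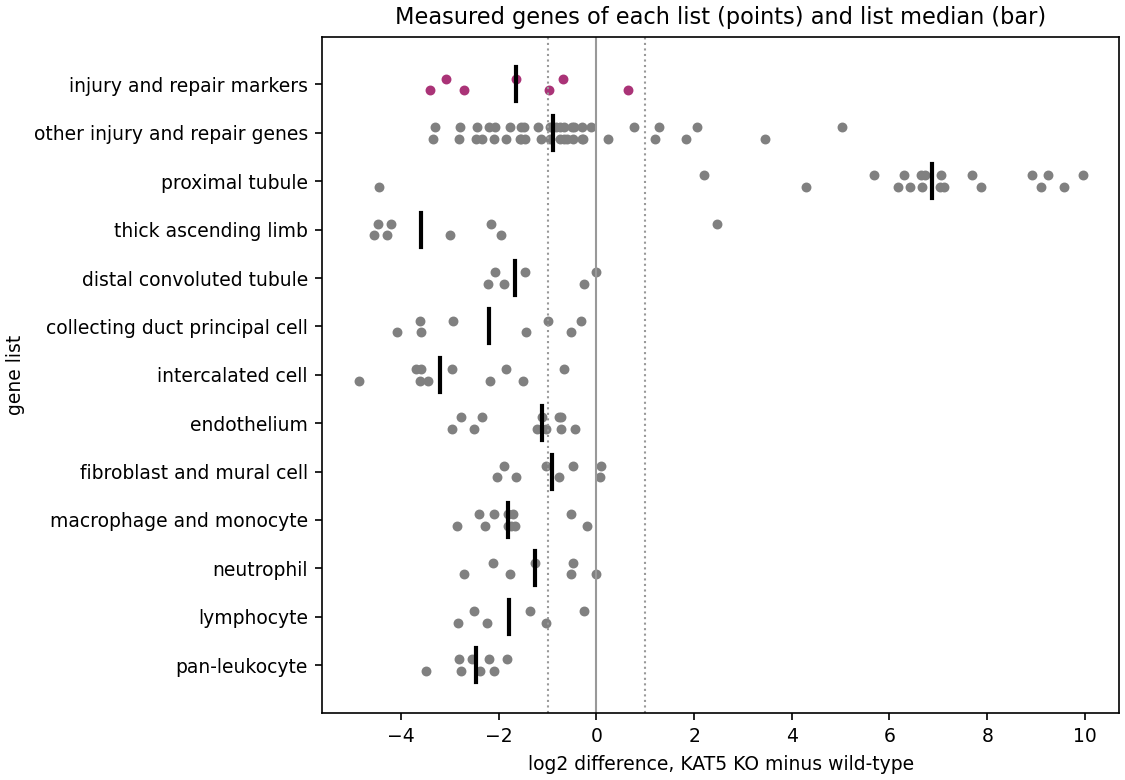
Log2 difference (KAT5 KO minus wild-type) of each measured gene (points) and the median of each list (bars), with dotted lines at the 2-fold limits. The marker list has its median at -1.64, the PT list at 6.87, and each of the 10 lists of other cells drawn (the glomerular list, at -0.55, is not) has a median under 0, from -3.59 for the thick ascending limb to -0.90 for fibroblasts and mural cells.

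A wider list of 51 injury and repair genes, which holds none of the 10 markers, had a similar tilt to the lower side with exceptions. Of its 46 genes on the array, 19 were lower, 6 were higher, 17 reached 2-fold in neither direction and 4 were under the background level on both arrays. Of the 42 measured genes, 45.2% were lower and 14.3% higher, beside 15.9% and 17.7% of all measured genes. The share of higher genes was thus near that over all measured genes. Of the 17, Sox4, Hbegf and Tgfb2 were under background in KAT5 KO cells and gave only bounds, at least 1.69-fold, 1.58-fold and 1.23-fold lower. The 42 measured genes had a median difference of -0.89, beside -0.05 over all measured genes. The genes under the background level were Sox9, Timp1, Krt20 and Cxcl1, all of which rise in injured kidneys.

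Signalling and surface genes led the lower side of this list. Cd24a, a surface protein of progenitor-like tubular cells and of leukocytes, read 10.42 in wild-type and 7.08 in KAT5 KO cells. Tgfb1, the profibrotic cytokine, was at 14.66 and 11.36, and its receptor gene Tgfbr1 at 16.37 and 13.57. Birc3, an inhibitor of apoptosis, differed by -2.79 and the calcium-binding S100a11 by -2.47. Clu, the chaperone clusterin, differed by -2.45. These genes too are expressed by leukocytes or distal nephron cells, whose markers were lower as given above, and the part of those cells was not tested.

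The 6 higher genes included all of the fibrinogen genes. Fgg, the γ chain of fibrinogen, read 4.14 in wild-type cells, under background, and 10.15 in KAT5 KO cells, at least 32.4-fold higher. Fga, the α chain, was at 4.42 and 8.59, at least 10.9-fold higher, and Fgb, the β chain, at 4.28 and 6.34, at least 2.31-fold higher. All 3 chains were thus measurable in KAT5 KO cells only. Fgb was named for its membership in this complex after its value was seen.

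The remaining higher genes were growth factor receptors and a secreted protein. Igfbp7, a secreted protein used in urine as a marker of cell cycle arrest in the tubule, read 15.92 in wild-type and 17.99 in KAT5 KO cells. Egfr, the receptor that drives tubular regeneration, read 4.70 in wild-type cells, under background, and 6.98 in KAT5 KO cells, at least 3.59-fold higher. Met, the receptor of hepatocyte growth factor, was higher by 1.27. The cell cycle inhibitor gene Cdkn1a differed by -0.10 and Cdh6, a cadherin of the developing and injured PT, by -0.26. On the same arrays 19 of 20 PT markers were higher, as given above, and whether these genes moved with the share of PT cells was not tested.

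**Figure D4:**
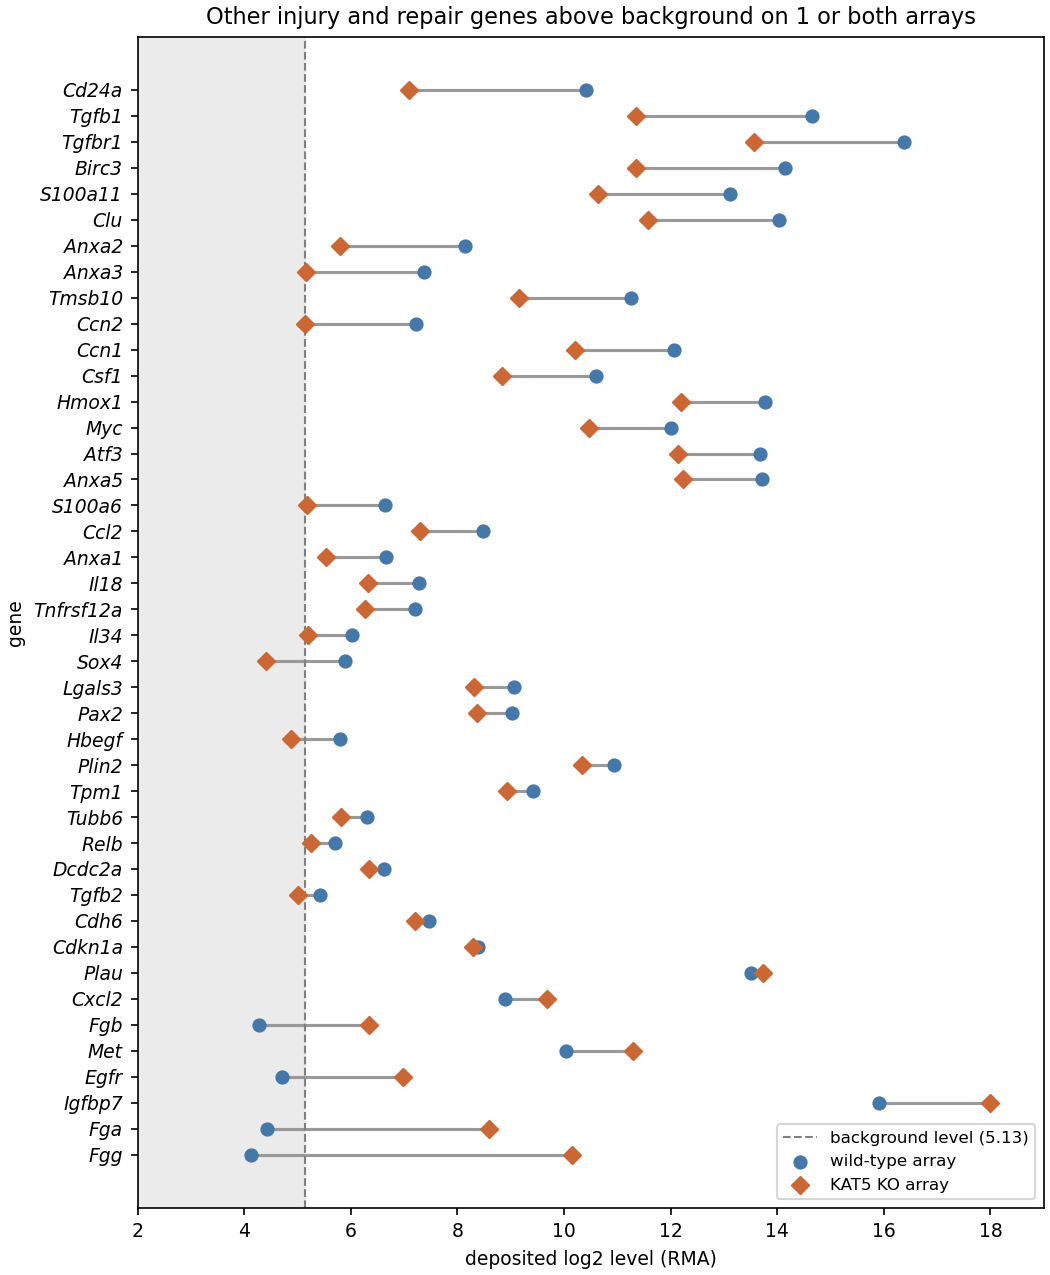
Deposited log2 levels of the 42 measured genes of the wider injury and repair list on the wild-type array (circles) and the KAT5 KO array (diamonds), ordered by difference, with the background level of 5.13 as a dashed line. Cd24a and Tgfb1 at the top have the lowest differences, and Fgg at the bottom rises from 4.14 to 10.15.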

How the data were processed

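RNA of isolated PT cells was hybridised to Clariom S mouse arrays, 1 from wild-type and 1 from KAT5 KO mice. The authors' RMA values, made with the Transcriptome Analysis Console, were deposited as log2 levels of 28846 probe sets, whose centring is not given in the sources used here. Versions are not given there either. RMA scales arrays to each other on the assumption that most genes are level, and precision is limited by having 1 array each. The highest value of 19.93 was shared by 35 and 20 probe sets and was read as a ceiling. No injury or repair marker was at it.

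Of the probe sets, 19572 carried 1 gene symbol and 9274 carried none and were not used. Levels were averaged over probe sets for 55 genes, and each marker had 1 probe set. The background level and the threshold of 2-fold were applied as given in the report. For genes above background on 1 array only, the difference is a bound ("at least"). Summed levels are the log2 of the sum of linear levels over all genes of a list on the array.

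The genes named were the 10 markers, Kat5, Prom1, Pecam1, the Y-linked genes, up to 5 genes in each direction from the wider injury list, from the other keratins and from the partner lists, up to 2 from each cell type list, and partners by their role. Clu, Cdkn1a, Cdh6, Sox9, Timp1, Cxcl1, Lmna, Nes, Jup, Pkp2, Krt12, Krt40, Krt222, Krt5, Cldn10, Sox4, Hbegf, Tgfb2, Dcn, Postn, Slc34a1, collagen, T cell and neutrophil granule genes were added to this after their values were seen. Pax8, Podxl, Synpo, Cd79b and Ms4a1 were added in the same way. The markers and lists were chosen with earlier results of these data known.

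The alternatives were centring on the median, quantile normalization, removal of a loess trend (span 0.3), a background set at the receptor genes' 99th percentile, no background, the highest antigenomic control as background (chosen after seeing the data), the brightest probe set, and thresholds of 1.5-fold and 3-fold. The code was checked on simulated arrays, made from the wild-type values with known differences added and no noise. This does not show how the steps behave with noise or a changed cell mix. Python 3.11.15 with numpy 2.4.6, pandas 2.3.3, statsmodels 0.14.6 and matplotlib 3.10.9 was used.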

Additional observations from a re-analysis of the deposited data

How the results depend on the processing

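With 1 array per genotype no array could be left out, and no paired analysis was possible because each genotype has 1 sample. Krt7, Lcn2, Cd44 and Vim kept their direction and stayed past the threshold under every alternative run. Apart from the thresholds, their differences ranged from -3.52 to -3.31, from -3.09 to -1.78, from -2.85 to -2.50 and from -1.80 to -1.43. Krt8 stayed between 0.45 and 0.74. Vcam1 passed 2-fold with quantile normalization (-1.11). With no background level, Havcr1 entered with a deposited difference of 1.47, which made 1 marker higher, and the median over 9 markers was -0.97. At 1.5-fold, Krt8 made 1 marker higher, Vcam1 and Krt18 were also lower, and 3102 genes were higher and 3132 lower among all measured genes. At 3-fold these were 1245 and 917, and 12 genes of the wider injury list were lower. Krt18 was not measured with a background level from the 99th percentile or from the highest antigenomic control. All remaining counts stayed within 1.5 times their main value. Depth has no counterpart on arrays. Markers near the background level, Lcn2 on the KAT5 KO array, Krt8 and Krt18, are the least certain.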
